A study of Caenorhabditis elegans with 2 samples.

Results

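Binding of the nuclear protein LIN-15B was examined at 10 genes of the Wnt signalling pathway of the nematode Caenorhabditis elegans, out of 19973 annotated protein-coding genes. The genes were a given list of pathway members, and all 10 were found in the annotation. The ligand side comprises 6 of them, the secreted ligands lin-44, egl-20, cwn-1 and mom-2, the ligand-processing gene mom-1 and the receptor gene lin-17. The intracellular members are the other 4, bar-1, wrm-1, lit-1 and pop-1. ChIP-seq, which sequences the DNA recovered with a protein, was done on whole L3 larvae of strain OP184, of mixed sex. All larvae carry the integrated transgene wgIs184, which encodes LIN-15B fused to eGFP, and the unc-119(tm4063) III allele. There was 1 group of 2 biological replicates, and the labels name no other genotype, stage or treatment. Fragments were 150 to 350 bp long.

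The promoter that drives the fusion was not stated in the labels, and whether the replicates came from separate cultures was not stated beyond the word biological. Whole larvae mix all tissues, so binding in few cells and weak binding in many cells cannot be told apart, and no tissue marker can check the samples. The main list holds the 3331 peaks that passed a threshold on the irreproducible discovery rate (IDR), a measure of agreement between replicates. They are also the highest 3331 of the 30000 entries of the pooled list, which runs on into background. The list of replicate 1 holds 24760 entries and that of replicate 2 holds 27552. Each entry has a signal on a scale that was not stated and no read count, so depth is unknown and signals are ranked within a list.

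Wnt proteins are secreted signals that receive a lipid before they leave the cell and bind Frizzled receptors on other cells. In the canonical branch the signal stabilises a beta-catenin, BAR-1 in C. elegans, which joins the TCF factor POP-1 on DNA and turns on target genes. In the asymmetry branch the beta-catenin WRM-1 and the Nemo-like kinase LIT-1 lower POP-1 in the nucleus of 1 daughter cell of a division. In larvae these branches act in seam cell divisions, neuroblast migration and vulval patterning. LIN-15B belongs to the synMuv B proteins, which restrain vulval fates and keep germline genes silent in somatic cells.

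The DNA at 5 summits is shown first, as 201 bases centred on the summit, read 5' to 3' on the plus strand of the RefSeq genome WBcel235, the same assembly as ce11. For lit-1 (chrIII:13717605-13717805), wrm-1 (chrIII:5721936-5722136) and mom-1 (chrX:6296383-6296583) it is the highest IDR peak of the gene. For mig-5 (chrII:8185098-8185298), a Dishevelled gene, it is the strongest promoter peak of a wider pathway list. For cwn-1 (chrII:133805-134005) it is a pooled entry far below the IDR list, shown as the contrast of a ligand gene without a peak. Capitals mark matches, on either strand, to 5 short motifs. The first is the repeat GAGAGA. A pair of motifs are forms of the cell cycle homology region, namely TTTGAA in the first form and its palindromic relative TTCGAA in the other. Also searched were the palindrome GCGCGC and, as a site of the TCF type, the motif CTTTGAT, which shares 5 letters with the first homology form.
lit-1: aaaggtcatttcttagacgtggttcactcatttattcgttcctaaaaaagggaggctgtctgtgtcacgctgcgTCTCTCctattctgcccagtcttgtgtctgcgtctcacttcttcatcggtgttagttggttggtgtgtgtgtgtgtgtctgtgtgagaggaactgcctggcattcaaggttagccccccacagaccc
wrm-1: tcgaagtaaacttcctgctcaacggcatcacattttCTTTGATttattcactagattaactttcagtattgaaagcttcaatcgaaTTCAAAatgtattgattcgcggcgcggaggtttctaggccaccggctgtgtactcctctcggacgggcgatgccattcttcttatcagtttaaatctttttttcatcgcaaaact
mom-1: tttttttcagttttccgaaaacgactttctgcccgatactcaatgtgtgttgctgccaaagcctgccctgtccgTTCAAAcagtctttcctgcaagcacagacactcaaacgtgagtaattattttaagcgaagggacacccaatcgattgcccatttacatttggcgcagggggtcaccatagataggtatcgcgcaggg
mig-5: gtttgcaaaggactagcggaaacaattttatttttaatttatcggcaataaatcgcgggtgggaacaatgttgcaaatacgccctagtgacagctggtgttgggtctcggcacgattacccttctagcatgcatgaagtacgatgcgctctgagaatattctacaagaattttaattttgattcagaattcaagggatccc
cwn-1: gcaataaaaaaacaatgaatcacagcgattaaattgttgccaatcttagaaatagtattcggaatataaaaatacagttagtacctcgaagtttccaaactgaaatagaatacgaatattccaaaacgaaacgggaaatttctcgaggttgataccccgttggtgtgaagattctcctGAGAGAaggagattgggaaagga

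LIN-15B peaks at these genes lay mostly at intracellular members. Of 8 IDR peaks between 5 kb upstream and the gene end, 7 were at wrm-1, lit-1 and pop-1 and 1 was on the ligand side, inside mom-1. Of the 7, 3 were at lit-1 alone, a gene of 22.41 kb. By gene, 3 of 4 intracellular members and 1 of 6 on the ligand side had a peak, against 29.0% of all genes. Their exact 95% intervals, 19.4 to 99.4% and 0.421 to 64.1%, overlap and both include that share. A gene was called promoter-bound where the summit of an IDR peak lay from 500 bp upstream to 200 bp downstream of any annotated 5' end. By this rule 2 of the 10 genes were bound, lit-1 and pop-1 (20%, exact 95% interval 2.52 to 55.6), against 13.4% of all protein-coding genes. The share of all genes lies inside that interval, so the 10 genes together did not stand apart. On the ligand side 0 of 6 genes were bound, which allows a share of up to 50%, and 2 of 4 intracellular members were (50%, interval 6.76 to 93.2). These ranges overlap. Intervals and limits cover counting error only, and no test was made between the sides, since genes are not replicates of a condition.

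Upstream sequence showed the same sides, but it is not separate from the promoter count. The 5 kb include the 500 bp upstream part of the promoter window, at the 10 genes and over all genes. At pop-1 the promoter summit thus counts here as well. Within 5 kb upstream of the outermost 5' end, 3 of the 10 genes had an IDR summit, namely wrm-1, lit-1 and pop-1, against 26.7% of all genes. This was 0 of 6 on the ligand side and 3 of 4 among intracellular members (interval 19.4 to 99.4). The free space upstream differed between the sides too. The next protein-coding gene upstream was 1.29 to 4.72 kb away on the ligand side and 5.26 to 15.55 kb away at the intracellular members. Over all genes, a summit in the 5 kb was found at 14.2% of the 3180 genes with more than 5 kb of space and at 29.1% of the 16788 genes with less. The part of this spacing in the difference between the sides was not tested.

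Gene bodies held an IDR summit at 2 of the 10 genes, mom-1 and lit-1, against 3.60% of all genes. A summit at an internal promoter counts in the body as well, which is the case for lit-1. Long genes had body summits more often, at 11.5% of the 3231 genes over 5 kb and at 2.07% of the 16742 shorter ones. Both mom-1 (5.19 kb) and lit-1 (22.41 kb) are over 5 kb, where the median gene has 2.03 kb, and the part of length in this count was not tested. The ligand side had 1 body summit in 27.1 kb of gene and the intracellular members 2 in 39.4 kb. Counting promoter window, body and upstream sequence, 4 of 10 genes had a summit, against 29.0% of all genes, and these were 1 of 6 on the ligand side and 3 of 4 intracellular members.

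**Figure D1:**
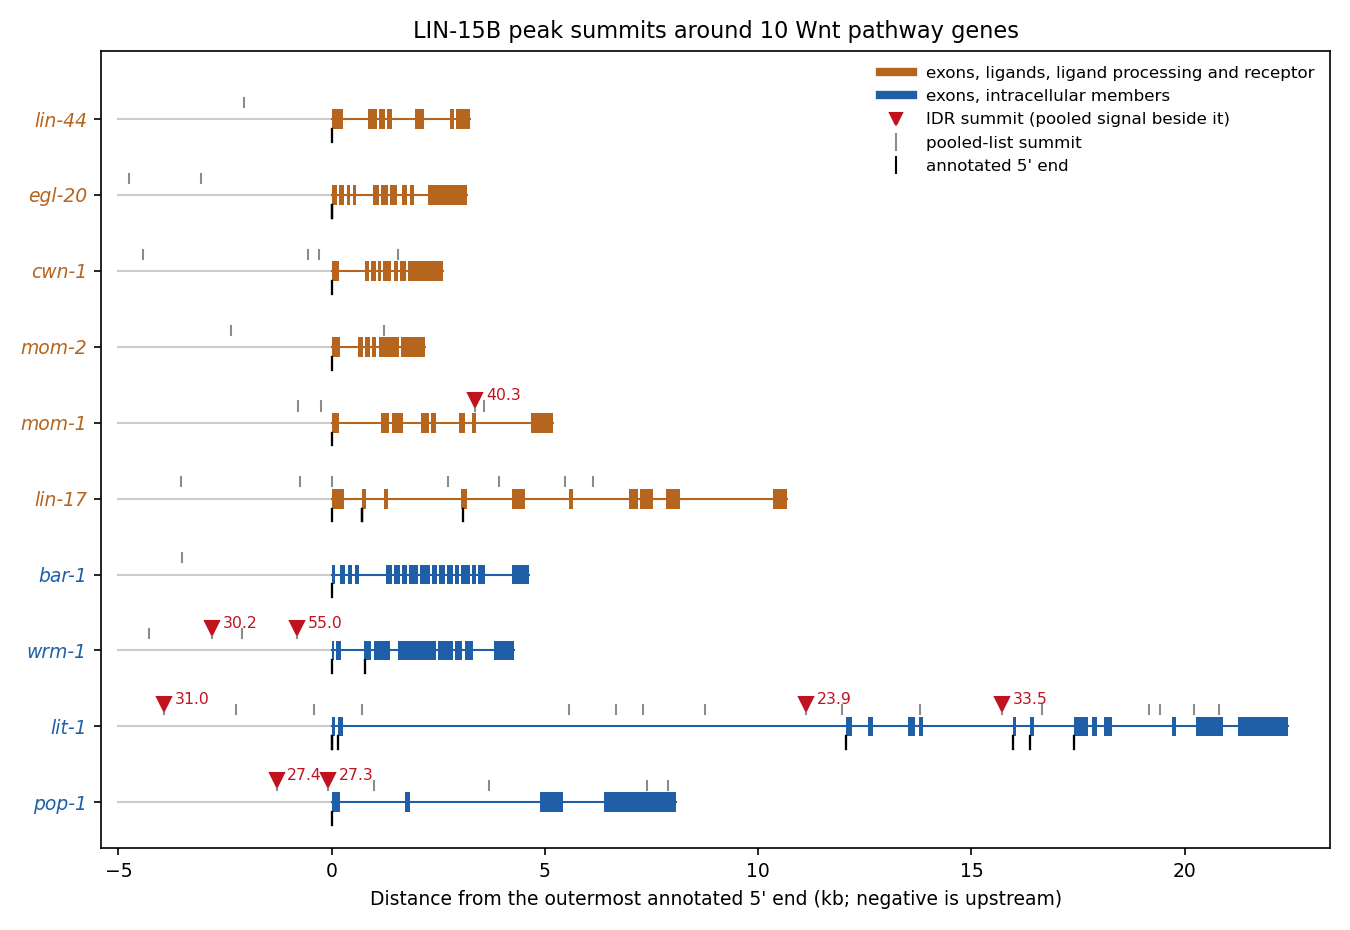
Map of the 10 genes by distance in kb from the outermost annotated 5' end, with ligand-side genes in brown and intracellular members in blue, exons as boxes, 5' ends as black ticks and pooled-list summits as grey ticks. Red triangles are the 8 IDR summits with their pooled signal, of which 1 lies in mom-1 and 7 lie at wrm-1, lit-1 and pop-1.

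Signal at the 4 ligand genes stayed below the IDR list. The weakest IDR peak had a pooled signal of 22.7, the median pooled entry 5.56 and the weakest 3.29. The highest entries of mom-2 and egl-20 were above that median, and those of cwn-1 and lin-44 were below it. The gene lin-44 (WBGene00003029, I:4126056-4129310, plus strand), whose product orients cells of the tail, had 1 pooled entry, with a signal of 3.76 (rank 25680) 2065 bp upstream. Replicate 1 had an entry of 3.28 at 2034 bp upstream, and replicate 2 had none between 5 kb upstream and the gene end. No list placed an entry at the promoter or in the body of lin-44.

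The gene egl-20 (WBGene00001188, IV:9812357-9815532, minus strand) encodes the Wnt that steers the Q neuroblasts. Its highest pooled entry had a signal of 6.66 (rank 11445), 4747 bp upstream, and neither replicate had an entry there. This is farther than the next gene upstream, 1.88 kb away. The promoter window was empty in all lists, and replicate 2 had a body entry of 3.14.

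The ligand gene cwn-1 (WBGene00000857, II:130983-133598, minus strand) had a pooled entry of 4.50 (rank 20362) in the promoter window, 307 bp upstream, at the sequence shown above. No replicate had an entry in that window. In the body, 1551 bp downstream of the 5' end, the pooled signal was 5.09 and that of replicate 2 was 6.55 (rank 6192), while replicate 1 had no body entry.

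The gene mom-2 (WBGene00003395, V:8355988-8358185, plus strand) encodes the Wnt that induces endoderm in the embryo. Its highest pooled entry had 7.48 (rank 9644), 2363 bp upstream, where replicate 2 had 3.90 and replicate 1 no entry. The body held a pooled entry of 4.59, with 5.64 in replicate 2 (rank 7536) and none in replicate 1, and the promoter window was empty in all lists. At the 4 ligand genes no entry of either replicate ranked among its highest 3331.

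The gene mom-1 (WBGene00003394, X:6293112-6298305, plus strand) encodes a Porcupine-type acyltransferase that attaches the lipid to Wnts, and it alone had an IDR peak among the 6. This peak (chrX:6296328-6296637, ce11) had a signal of 15.7 in replicate 1 (rank 2426), 27.5 in replicate 2 (rank 1783) and 40.3 in the pooled list (rank 2113). Its summit lay 3371 bp downstream of the 5' end, in coding exon 7 of 8. That exon has 101 bp and ends 10 bp after the summit, where an intron of 1299 bp begins. The summit of replicate 1 lay 17 bp and that of replicate 2 27 bp further downstream, so both replicates placed it in the intron. No other protein-coding gene had this summit in its promoter window.

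Closer to its 5' end mom-1 had signal below the IDR list, and the replicates differed there. A pooled entry 797 bp upstream had a signal of 16.9 (rank 4187), with 14.4 in replicate 2 (rank 3009) and no entry in replicate 1. In the promoter window the pooled signal was 4.95, 253 bp upstream. There replicate 1 had entries of at most 3.19 and replicate 2 had none.

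The gene lin-17 (WBGene00003006, I:2706883-2717549, plus strand) encodes a Frizzled receptor, and it was the gene without an IDR peak that came nearest to the list. An entry 3544 bp upstream had a signal of 11.3 in replicate 1 (rank 3158), 6.86 in replicate 2 (rank 5861) and 16.6 in the pooled list (rank 4235). At the outermost 5' end, 11 bp downstream, it had 9.20 in replicate 1 (rank 3774) and 11.5 in the pooled list (rank 5843), and replicate 2 had no entry there. The highest entry of replicate 2 in a lin-17 promoter window was another one, of 3.48. Of the replicates, replicate 1 alone thus had an entry at the outermost of the 4 annotated 5' ends.

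Among the intracellular members bar-1 (WBGene00000238, X:7166005-7170625, minus strand), the beta-catenin gene of the canonical branch, was the exception without an IDR peak. It overlaps pgp-10 in the annotation. Its only pooled entry had a signal of 3.49 (rank 28016), 3514 bp upstream. Replicate 1 had 2.82 at 3510 bp upstream, and replicate 2 had 3.10 at 4992 bp upstream. The promoter window was empty in all lists, as at lin-44, egl-20 and mom-2.

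The gene wrm-1 (WBGene00006943, III:5722850-5727115, plus strand) encodes the beta-catenin that acts with LIT-1, and it had the highest peak of the 10 genes. This proximal peak (chrIII:5721881-5722190) had a signal of 20.9 in replicate 1 (rank 1894), 30.1 in replicate 2 (rank 1607) and 55.0 in the pooled list (rank 1602). Its summit was 814 bp upstream, outside the promoter window and inside a window of 1000 bp. The distal peak (chrIII:5719882-5720191), 2813 bp upstream, had 16.3 in replicate 1, 16.1 in replicate 2 and 30.2 in the pooled list (rank 2663). No other protein-coding gene had either summit in its promoter window. By level alone, the genes outside the list whose highest promoter signal was nearest to the 55.04 of wrm-1 were eor-2 (55.03) and csn-1 (55.01).

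The gene lit-1 (WBGene00003048, III:13701991-13724404, plus strand) encodes the Nemo-like kinase and has 7 transcripts, whose 5' ends spread over 17405 bp. It had 3 IDR peaks, and the highest (chrIII:13717550-13717859) had a signal of 13.6 in replicate 1 (rank 2738), 19.4 in replicate 2 (rank 2380) and 33.5 in the pooled list (rank 2461). That summit was in an intron, 15714 bp into the gene and 260 bp upstream of the 5' end of transcript W06F12.1b.1. The promoter call of lit-1 rested on this internal start, and with outermost 5' ends alone lit-1 was not called.

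The other lit-1 peaks were outside the promoter windows. The intronic one (chrIII:13712966-13713275) was 924 bp upstream of the start of W06F12.1a.1, with 14.6 in replicate 1 (rank 2577), 11.7 in replicate 2 (rank 3533) and 23.9 in the pooled list (rank 3189). The upstream one (chrIII:13697908-13698217), 3928 bp before the gene, had 10.8 in replicate 1 (rank 3303), 19.3 in replicate 2 (rank 2393) and 31.0 in the pooled list (rank 2614). The body of lit-1 held 14 pooled summits in all, and those outside the IDR list had a signal of at most 13.5.

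The gene pop-1 (WBGene00004077, I:2822243-2830311, minus strand) encodes the TCF factor in which both branches end. Of the 8 peaks its promoter peak (I:2830240-2830549) was the nearest to a 5' end, with a summit 84 bp upstream. The signal was 12.5 in replicate 1 (rank 2928), 10.1 in replicate 2 (rank 3996) and 27.3 in the pooled list (rank 2890). In the highest 3331 entries of replicate 2 alone this peak was not included. A second peak (I:2831446-2831755), 1290 bp upstream, had 14.6 in replicate 1 (rank 2580), 13.9 in replicate 2 (rank 3082) and 27.4 in the pooled list (rank 2866). Both summits lie inside annotated non-coding RNA genes on the plus strand, W10C8.14 (149 bp) for the promoter peak and W10C8.8 (370 bp) for the other, so the peaks cannot be assigned to pop-1 alone.

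By the standard of the whole list these were weak peaks. Only the proximal wrm-1 peak exceeded the median pooled signal of the IDR list, 53.1. Among the 2683 promoter-bound genes the median of the highest promoter signal was 70.5, and 83.6% of them had a higher signal than lit-1 and 91.6% a higher one than pop-1. The order by pooled signal was proximal wrm-1, mom-1, lit-1 at the internal start, upstream lit-1, distal wrm-1, distal pop-1, the pop-1 promoter and intronic lit-1. For each pair of neighbours in this order the replicate ranks overlapped, so neighbours did not differ beyond the replicates. The proximal wrm-1 peak, at ranks 1607 and 1894, overlapped mom-1 alone (1783 and 2426). It did not overlap any of the other peaks, from distal wrm-1 (2343 and 2744) to the pop-1 promoter (2928 and 3996).

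**Figure D2:**
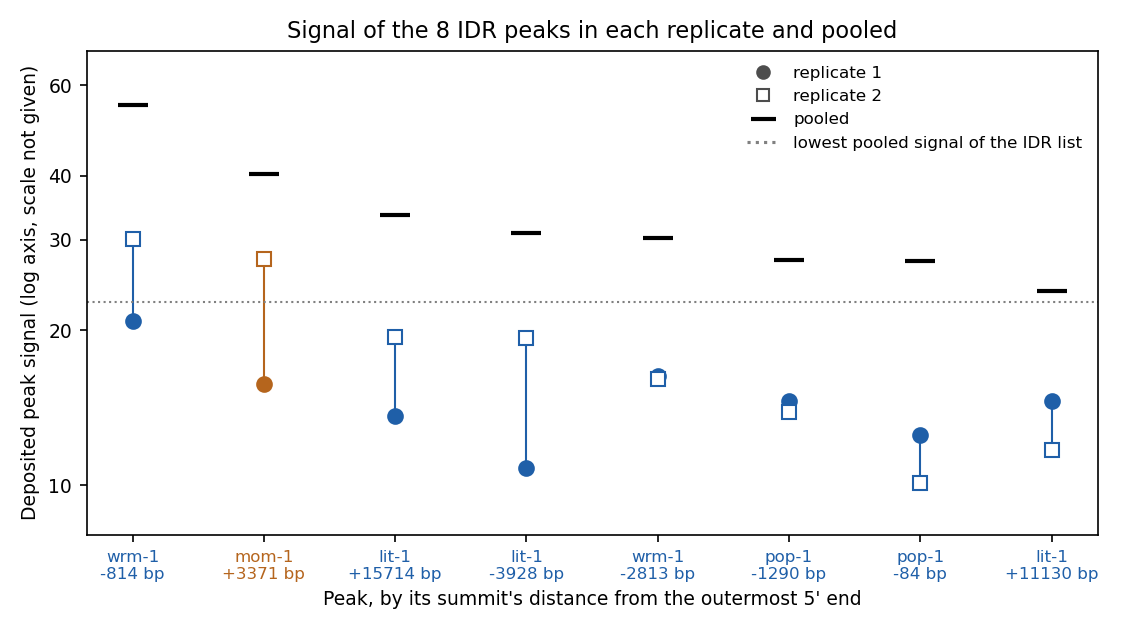
Deposited signal (log axis, scale not stated) of the 8 IDR peaks in replicate 1 (filled circles), replicate 2 (open squares) and the pooled list (black bars), ordered by pooled signal, with mom-1 in brown and intracellular members in blue. Replicate values run from 10.1 to 30.1, and all pooled values lie above the dotted line at 22.7, the weakest IDR peak.

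The difference between replicates at these peaks was within the range usual for the IDR list. Over the 3322 IDR peaks with an entry in both, the log2 ratio of replicate 2 to replicate 1 had a median of 0.26 and an SD of 0.59. At the 8 peaks it ran from -0.31 at intronic lit-1 to 0.83 at upstream lit-1, with 0.81 at mom-1, 0.53 at proximal wrm-1 and -0.30 at the pop-1 promoter. Relative to the median these values ran from -0.58 to 0.57, all within 1 SD. The summits of the replicates lay within 47 bp of the pooled summit, except in replicate 2 at intronic lit-1, where they were 93 bp apart. All 8 peaks were 310 bp wide, which is also the median width in the list.

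**Figure D3:**
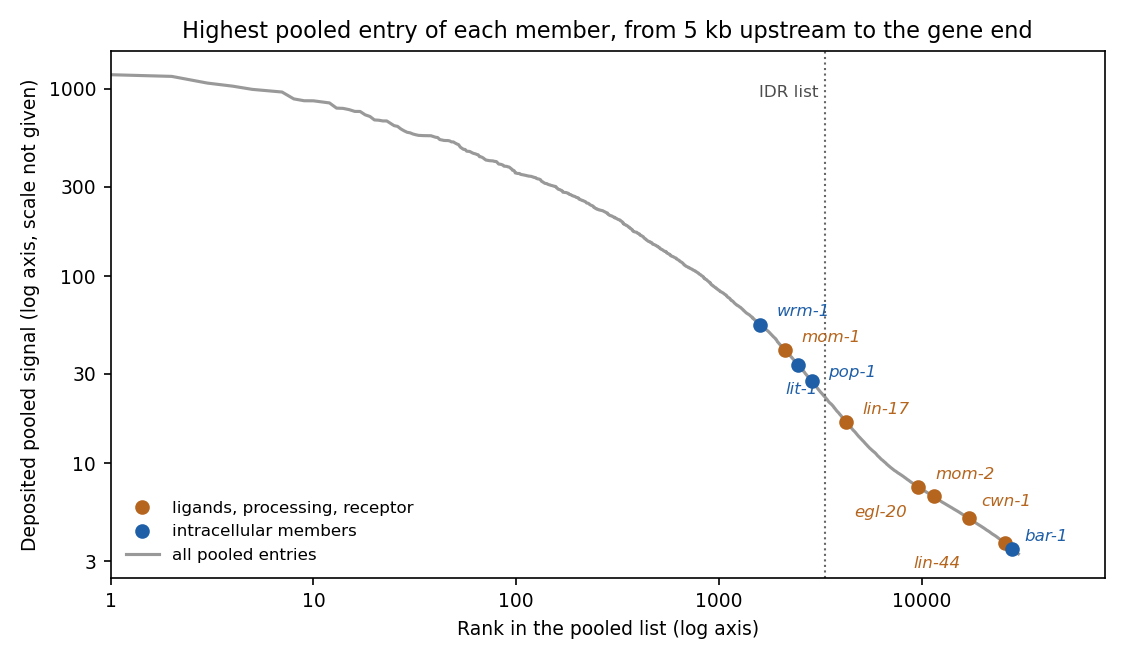
Pooled signal against rank in the pooled list (both axes log), with the highest entry of each gene from 5 kb upstream to the gene end, ligand-side genes in brown and intracellular members in blue. Left of the dotted line, which closes the IDR list at 3331, are wrm-1 (1602), mom-1 (2113), lit-1 (2461) and pop-1 (2866), followed by lin-17 at 4235 and the other 5 genes from 9644 on.

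In the pooled list with its background entries, the count did not separate the sides. A promoter window held a pooled summit at 5 of the 10 genes, against 36.8% of all genes, and these were 3 of 6 on the ligand side and 2 of 4 intracellular members. The signals were 4.50 at cwn-1, 4.95 at mom-1 and 11.5 at lin-17, against 33.5 at lit-1 and 27.3 at pop-1. Since the IDR list is the top of the pooled list, genes called by it lie at 22.7 or above and the others below. The gap in signal therefore restates the promoter call and is no further difference between the sides.

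Base composition at the peaks spanned that of the list. Over all IDR peaks the 101 bases at the summit had a median GC content of 47.5%, with quartiles of 42.6 and 52.5%. The mom-1 peak and the pop-1 promoter had 47.5% each and proximal wrm-1 46.5%. The richest were upstream lit-1 with 58.4% and distal pop-1 with 57.4%, and the other lit-1 peaks had 53.5 and 51.5%. The poorest was distal wrm-1 with 36.6%, and 6.9% of IDR summits had less. The cwn-1 entry shown above, from below the IDR list, had 32.7%.

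The motifs in capitals occurred at the 8 summits as follows, in windows of 201 bases. GAGAGA was found at 3, both lit-1 peaks inside the gene and distal pop-1, and in 41.3% of all IDR windows. TTTGAA was found at 4, mom-1, both wrm-1 peaks and the pop-1 promoter, and in 37.1% of all windows. The palindrome TTCGAA was found at intronic lit-1 and in 14.8% of all windows. GCGCGC had 2 matches at distal pop-1 and was found in 14.3% of all windows. The TCF-type motif CTTTGAT was found at proximal wrm-1, in the sequence shown above, and in 2.1% of all windows. Upstream lit-1 and mig-5 held none of the 5. A match describes the letters and shows no binding.

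In a wider list of the pathway, receptors were unbound as well. Of 40 further genes listed by role 39 were found in the annotation, and 9 of them were promoter-bound (23.1%, interval 11.1 to 39.3). In the role listed as receptors and membrane proteins 0 of 9 were bound, which allows up to 33.3%. The receptors among them are the Frizzled genes mig-1, cfz-2 and mom-5 and the receptor kinase genes cam-1 and lin-18. Listed beside them are vang-1, fmi-1, sfrp-1 and plr-1, which are not called receptors here. Neither the ligand gene cwn-2 nor mig-14, which encodes the Wntless carrier of Wnts, was bound. Together with the 6 ligand-side genes this was 0 of 17, which allows up to 17.6% and so includes the 13.4% of all genes. This set of 17 is not one of the listed roles. It leaves out vps-35, vps-26 and snx-3, the 3 bound genes listed with cwn-2 and mig-14 under ligands and secretion. With them the count would not be 0. With bodies and 5 kb upstream, 3 of the 17 had a summit, mom-1, cwn-2 and plr-1, against 29.0% of all genes. By the same count the whole wider list had 19 of 39. The lists of cytoplasm (10 of 12), ligands and secretion (4 of 5) and nucleus and beta-catenins (3 of 3) were high. Those of receptors and membrane proteins (1 of 9) and target genes (1 of 10) were low. The lists were chosen with earlier results known, so these counts are no test of enrichment. The cwn-2 summit, 4878 bp upstream, lies in the promoter window of ipla-7, 89 bp upstream of that gene.

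Of the 5 genes in the list of ligands and secretion, 3 were bound (60%, interval 14.7 to 94.7), against 13.4% of all genes. The list was chosen with earlier results of these data known, so the interval covers counting error only and is no test of enrichment. The 3 bound genes take part in the transport of the Wnt carrier and also serve other cargoes. The retromer subunit gene vps-35 had 22.2 in replicate 1, 25.9 in replicate 2 and 48.7 pooled, 151 bp upstream. The retromer subunit gene vps-26 had 16.4, 20.7 and 39.0 in the same order, 16 bp downstream of its 5' end. The sorting nexin gene snx-3 had 21.4, 21.8 and 41.7, at a summit also in the promoter window of rad-54.L.

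In the cytoplasm 5 of 12 genes were bound (41.7%, interval 15.2 to 72.3), against 13.4% of all genes. Here too the list was chosen with earlier results known, and the interval is no test of enrichment. The Dishevelled gene mig-5 had the highest promoter signal of the list, with 238.3 in replicate 1 (rank 47), 274.5 in replicate 2 (rank 44) and 513.2 pooled (rank 50). Its summit lay 175 bp upstream of mig-5 and 245 bp upstream of cct-1, a chaperonin subunit gene, so it belongs to both windows. The others were the 14-3-3 gene par-5 (72.1 pooled, shared with M117.3), the Dishevelled gene dsh-2 (56.0), the TAB1-related gene tap-1 (44.0, shared with C44H4.4) and the Axin gene pry-1 (30.7). The peaks of dsh-2 and pry-1 were in no other gene's promoter window. At pry-1 the signal was 17.6 in replicate 1 (rank 2195) and 11.6 in replicate 2 (rank 3566), and with replicate 2 alone pry-1 was not called.

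Of the 3 genes found in the list of nucleus and beta-catenins, hmp-2, sys-1 and cbp-1, 1 was bound (33.3%, interval 0.84 to 90.6), against 13.4% of all genes. This was sys-1, whose product is the beta-catenin that joins POP-1 in the asymmetry branch. It had 6.2 in replicate 1 (rank 5525), 20.2 in replicate 2 (rank 2297) and 26.7 pooled. The log2 ratio of 1.70 lies more than 1 SD above the median of IDR peaks, and with replicate 1 alone sys-1 was not called. Of the target genes 0 of 10 were bound, which allows up to 30% and so includes the 13.4% of all genes. They are the Hox genes mab-5, lin-39 and egl-5, the endoderm genes end-1 and end-3, and ceh-22, tlp-1, psa-3, egl-18 and elt-6. Outside the promoter window, end-3 had an IDR peak 2430 bp upstream, with 114.1 pooled (rank 680). Its summit lies in the promoter windows of ddx-17 and aip-1.

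Some of the strongest peaks of the wider list lay upstream of the promoter windows, a position shared with the weaker peaks of wrm-1. The highest was 1151 bp upstream of kin-19, a casein kinase 1 gene, with 286.1 in replicate 1, 273.7 in replicate 2 and 561.2 pooled (rank 38). The gene of the CBP/p300 coactivator, cbp-1, had 279.6 pooled at 885 bp upstream, and the F-box gene lin-23 had 238.4 at 942 bp upstream. None of these 3 summits was in the promoter window of another protein-coding gene. The peak 1386 bp upstream of hmp-2, the beta-catenin gene of cell adhesion, had 170.9 pooled and lay in the promoter window of K05C4.7.

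**Figure D4:**
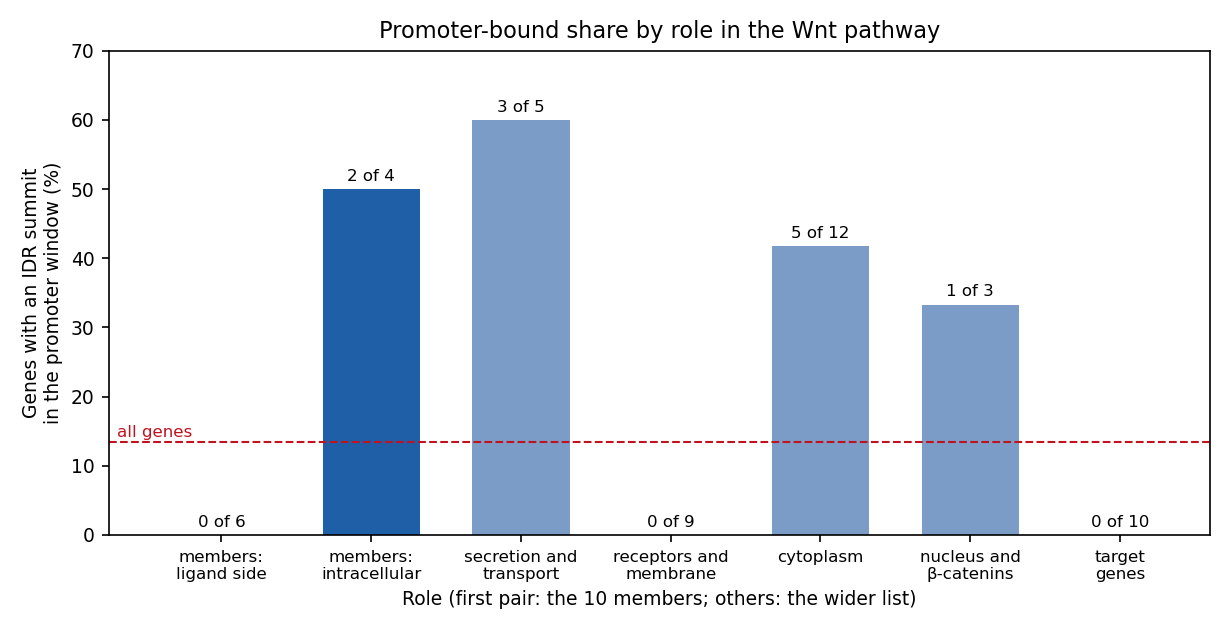
Percent of genes with an IDR summit in the promoter window, for the 10 genes by side (leftmost pair of bars) and the wider list by role, with counts above the bars and a dashed line at 13.4%, the share of all protein-coding genes. The ligand side, the role listed as receptors and membrane, and target genes stand at 0, and the other 4 sets lie between 33.3 and 60%.

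The promoter calls at lit-1 and pop-1 depended on the rule. Among the 1665 highest IDR peaks 0 of the 10 genes were promoter-bound, against 8.53% of all genes. Counting bodies and 5 kb upstream, wrm-1 alone had such a peak, upstream, against 17.6% of all genes. With replicate 2 alone pop-1 was not called, and with a window of 200 bp upstream lit-1 was not. The ligand side had 0 bound genes in each of the 7 alternatives for the promoter window. With 200 bp, the 1665 highest peaks or outermost 5' ends a count cannot rise, so 0 was fixed there. Only 1000 bp, peak intervals and each replicate alone could have raised it.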

How the data were processed

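LIN-15B-eGFP ChIP-seq was done on 2 biological replicates of L3 larvae. Per the deposited text records, the authors made a list of peaks and background from the alignments of each replicate and from both together, each with 1 further shared file whose content is not described, and thresholded peaks by IDR. The labels name a possible control experiment, and a separate signal track is called control-normalized. Aligner, caller and IDR threshold were not given in the sources used here, and the labels name LIN-15B as the antibody target. The signal of each peak is a deposited value of the authors, whose scale is likewise unknown. The deposited −log10 q-value was 3.96 throughout the IDR list and ranked nothing. Lists in ce10 were left out, since the annotation is ce11.

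Summits (start plus offset, 1-based) of the ce11 lists were placed on Ensembl release 115. Replicate entries were matched to a peak by 1 bp of overlap, taking the highest signal. With 1 group no test was run. Shares have exact 95% Clopper-Pearson intervals, and a count of 0 has a limit of 3 counts. Named genes were all 10 members, bound genes of the wider list, its 4 others with the highest peaks, genes that share those summits, and the 2 nearest to wrm-1 in signal. Outside this rule, unbound genes of the wider list are named to show what the lists hold. For their position pgp-10, ipla-7, ddx-17 and aip-1 are named too. Members, lists and motifs were chosen with earlier results of these data known. In the wider list imb-4 was not matched. Alternatives were promoter windows of 1000 and 200 bp, the 1665 highest peaks, peak intervals, outermost 5' ends, 2 and 10 kb upstream, and each replicate alone. The code was tested on simulated data. Software was matplotlib 3.10.9, scipy 1.17.1 and numpy 2.4.6 under Python 3.11.15.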

Additional observations from a re-analysis of the deposited data

How the results depend on the processing

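The ligand side had 0 promoter-bound genes in all 7 alternatives, of which those that narrow the rule (200 bp, stricter list, outermost 5' ends) could give nothing else. Among the 10 genes, all calls being intracellular, 3 were bound with 1000 bp upstream (wrm-1 added; 16.2% of all genes), 1 with 200 bp (pop-1; 7.59%), 0 in the stricter list (8.53%) and 1 with outermost 5' ends (pop-1; 12.7%). The count was 1 with replicate 2 alone (13.3% of all genes) and 2 with replicate 1 alone (13%). The wider list had 5 bound genes with 200 bp, 3 in the stricter list and 8 with either replicate left out, beside the same shares of all genes. In the stricter list 0 genes had a body summit (1.41% of all genes) and 1 had an upstream one (wrm-1; 16.5%), so 1 had either (17.6%). With 10 kb upstream 5 genes had an upstream summit (egl-20 and mom-2 added; 36.6% of all genes). With a replicate left out 4 had one, mom-1 being added in replicate 2 (26.5% of all genes) and lin-17 in replicate 1 (26%). The ligand side was then not at 0 upstream.

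The highest pooled promoter signal of mom-1 was 16.87 with 1000 bp, and that of lit-1, over all its 5' ends, 3.93 with 200 bp. In single replicates it was 3.19 at mom-1 (replicate 1), 3.48 to 9.20 at lin-17, 13.57 to 19.38 at lit-1 and 10.14 to 12.47 at pop-1, in lists whose scale may differ from the pooled one. There was no value for cwn-1 in either replicate or with 200 bp, nor for mom-1 in replicate 2 or with 200 bp. No paired analysis was possible because there was 1 group. Depth is unknown, and 10 genes leave wide intervals.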
